A study of Mus musculus with 26 samples.

Results

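The 9 genes described here, Trem2, Tyrobp, Gpnmb, Spp1, Lgals3, Cd9, Cd63, Cd68 and Itgax, are markers of lipid-associated macrophages, chosen by symbol from the 39017 genes of the count tables. All 9 were present once, and each had at least 16 counts in every library used, so all 9 were tested. The libraries came from epididymal white adipose tissue of male wild type C57BL/6J mice, digested with collagenase and split into floating adipocytes and pelleted stromal vascular cells (SVC), the pellet being treated to lyse red cells. LFD mice ate a diet with 10% fat for 12 weeks from 9 to 10 weeks of age, HFD mice ate a diet with 60% fat for the same 12 weeks, and SW (diet switch) mice ate the HFD for 9 weeks and then the LFD for 3 weeks. Adipocytes had 3 libraries per diet, and SVC had 1 LFD, 2 HFD and 3 SW libraries, named here by the numbers of their columns in the tables.

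Lipid-associated macrophages gather around dying, lipid-laden adipocytes in obese fat, where they take up and degrade the released lipid in lysosomes. TREM2 is the surface receptor that senses lipids in these cells, and TYROBP is the adaptor that carries its signal through the kinase SYK. The other genes encode secreted or surface proteins, lysosomal glycoproteins and tetraspanins that rise when macrophages load with lipid, and several of them, among them Cd9 and Cd63, are also used by many other cell types.

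Library totals ran from 5781902 to 23725647 counts, and levels below are counts scaled to library size (CPM) after edgeR's TMM scaling. The defining macrophage markers were measured in the adipocyte libraries too, where their summed level ran from 746 to 1211 CPM in LFD, from 7935 to 9093 CPM in HFD and from 5867 to 8757 CPM in SW mice, with none of the 11 markers at 0 in any library. In SVC the same sum was 8141 CPM in the LFD library, 9672 and 18563 CPM in the HFD libraries and 12807 to 18908 CPM in SW. Adipocyte markers summed to 28976 to 39029 CPM in LFD adipocytes, 11211 to 18627 CPM in HFD adipocytes, 24492 to 26416 CPM in SW adipocytes and at most 1208 CPM in SVC. Fibroblast and progenitor markers summed to 1632 to 2524 CPM in LFD, 5404 to 7414 CPM in HFD and 3405 to 3888 CPM in SW adipocytes, and red cell markers reached 52616 CPM in the LFD SVC library. That library also had 842 CPM of mesothelial, 629 CPM of neutrophil and 13862.5 CPM of fibroblast and progenitor markers. The HFD and SW SVC libraries had at most 153, 181 and 10043 CPM of these. Its T cell and B cell markers lay within the range of the HFD and SW SVC libraries. The part of these shares in the results below was not tested. The HFD SVC libraries stood apart from each other, with 6.34% (library 212) and 33.5% (library 411) of counts on the mitochondrial genome. In such bulk fractions, fewer cells of a type and less RNA per cell cannot be told apart. Nothing in the labels says whether libraries came from separate mice or pools, so p-values measure the spread between these libraries.

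All 9 genes were higher in adipocyte libraries of HFD than of LFD mice, and all 9 were still higher than LFD in SW mice, 3 weeks after the return to LFD. Set against HFD, none of the 9 passed the test in SW adipocytes. In SVC, Spp1 was lower in SW than in HFD mice while the other 8 genes did not pass the test. The plot of levels by library shows these values for every gene.

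**Figure D1:**
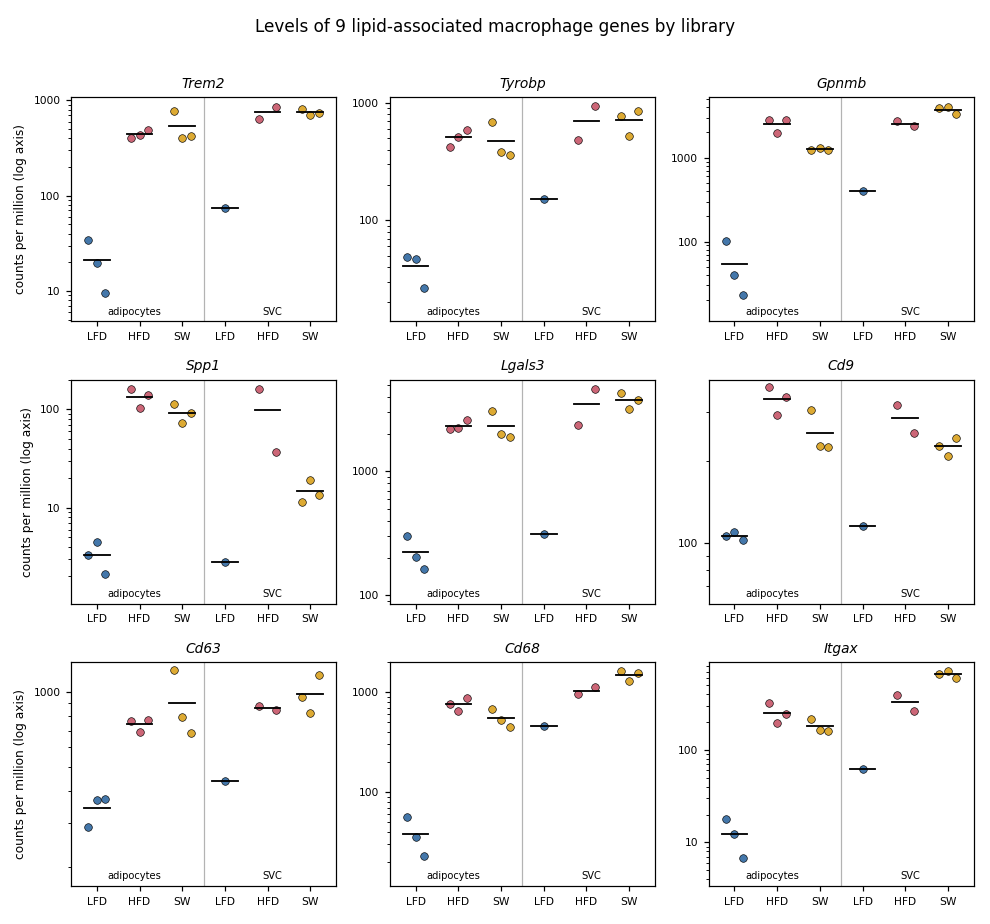
Levels of the 9 genes in each library (CPM, log axes that differ between panels), by diet in adipocytes (left of the grey line) and SVC (right). Points are libraries and bars are group means. In adipocytes every HFD and SW point lies above every LFD point for all 9 genes, and Spp1 in SVC runs from 36.8 to 161 CPM in HFD but from 11.5 to 19.1 CPM in SW.

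The receptor gene Trem2 was at 34.1, 19.7 and 9.63 CPM in LFD adipocytes, at 406, 429 and 490 CPM in HFD adipocytes and at 775, 403 and 425 CPM in SW adipocytes. The HFD and SW libraries lay far above the LFD libraries and overlapped each other, with SW library 407 the highest. The log2 fold change of HFD against LFD was 4.40 ± 0.43 (SE, adjusted p = 3.98e-05, edgeR, quasi-likelihood F-test, Benjamini-Hochberg adjustment across every tested gene, as for all adjusted p-values here). Among all 14461 genes tested in adipocytes, 51.5% passed this comparison and 26.5% were higher in HFD, so the 9 calls are to be read against that background. The median log2 fold change was 4.33 over the 9 genes and -0.03 over all genes. All HFD libraries lay above all LFD libraries for the 9 genes, as they did for 32.1% of all genes.

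Its adaptor Tyrobp was at 48.4, 47.0 and 26.4 CPM in LFD, 426, 518 and 588 CPM in HFD and 687, 384 and 361 CPM in SW adipocytes. HFD was higher than LFD by 3.65 ± 0.32 on the log2 scale (SE, adjusted p = 2.19e-05, edgeR). The 2 genes of the receptor complex thus had HFD means of 442 and 511 CPM against LFD means of 21.1 and 40.6 CPM.

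Gpnmb, which encodes a transmembrane glycoprotein found in lysosomes and on the surface of lipid-loaded macrophages, had the largest rise among the 9. It was at 101, 39.8 and 23.2 CPM in LFD, 2784, 1975 and 2794 CPM in HFD and 1241, 1320 and 1220 CPM in SW adipocytes. The 3 diets did not overlap, with SW between LFD and HFD in all 3 libraries. HFD exceeded LFD by 5.54 ± 0.51 on the log2 scale (SE, adjusted p = 2.66e-05, edgeR).

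Spp1 encodes the secreted phosphoprotein osteopontin. In LFD adipocytes it was at 3.33, 4.49 and 2.11 CPM, in HFD adipocytes at 162, 104 and 140 CPM and in SW adipocytes at 113, 72.7 and 91.0 CPM. The HFD rise was 5.27 ± 0.29 on the log2 scale (SE, adjusted p = 6.26e-06, edgeR). Lgals3, which encodes the galactoside-binding lectin galectin-3, was at 304, 205 and 163 CPM in LFD, 2194, 2232 and 2586 CPM in HFD and 3085, 1983 and 1899 CPM in SW, a rise of 3.39 ± 0.29 in HFD (log2, SE, adjusted p = 1.91e-05, edgeR). The SW libraries of Lgals3 spread on both sides of the HFD libraries.

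Cd68 and Itgax complete the genes with rises above 3 on the log2 scale. Cd68, a lysosomal glycoprotein of macrophages, was at 56.5, 35.2 and 22.8 CPM in LFD, 771, 655 and 868 CPM in HFD and 681, 528 and 450 CPM in SW adipocytes (4.33 ± 0.33 on the log2 scale for HFD against LFD, SE, adjusted p = 1.14e-05, edgeR). Itgax, the integrin alpha chain known as CD11c, was at 17.9, 12.2 and 6.86 CPM in LFD, 322, 193 and 244 CPM in HFD and 216, 166 and 161 CPM in SW adipocytes, with a HFD rise of 4.37 ± 0.33 (log2, SE, adjusted p = 1.08e-05, edgeR). In both genes the SW libraries overlapped the HFD libraries from below.

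The 2 tetraspanins, membrane proteins that organise other proteins into patches and, for Cd63, sit in late endosomes and lysosomes, rose least. Cd9 was at 106, 110 and 103 CPM in LFD, 369, 292 and 339 CPM in HFD and 306, 225 and 225 CPM in SW adipocytes. Cd63 was at 289, 370 and 374 CPM in LFD, 766, 693 and 776 CPM in HFD and 1226, 796 and 687 CPM in SW adipocytes. HFD exceeded LFD by 1.65 ± 0.16 for Cd9 and by 1.11 ± 0.22 for Cd63 on the log2 scale (SE, adjusted p = 3.53e-05 and 0.00236, edgeR). In all 18 alternative analyses the 9 genes kept an adjusted p below the threshold of 0.05 for HFD against LFD.

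Per kilobase of the longest coding transcript, the order of mean levels in LFD adipocytes began with Cd63 at 310, Lgals3 at 158 and Cd9 at 86.7 CPM per kb. Spp1 at 2.20 and Itgax at 3.05 CPM per kb were the lowest. In HFD adipocytes Lgals3 led with 1647 CPM per kb, followed by Tyrobp at 855, Gpnmb at 680, Cd63 at 672 and Cd68 at 622 CPM per kb. The last 3 overlapped in their libraries, and Tyrobp (713 to 986 CPM per kb) overlapped Gpnmb (534 to 755 CPM per kb). Itgax at 62.6 and Spp1 at 89.7 CPM per kb remained at the lower end.

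Gene positions are given on GRCm38 (GENCODE M21). Trem2 lies at chr17:48346401-48354147 and Gpnmb at chr6:49036546-49070929, both on the plus strand, and Cd68 lies at chr11:69664213-69666153 on the minus strand. Itgax lies at chr7:128129547-128150657 on the plus strand. Since the 9 genes were higher together, the promoter windows of RefSeq (GRCm38.p6, 250 bases before to 50 after each start) were searched on both strands for TGACTCA (AP-1), GGAAGT (ETS core, which PU.1 binds), CACGTG and CATGTG (E-boxes). The table held 9 windows for 8 genes, 2 of them for Spp1. TGACTCA was in 3 of the 9 windows (Gpnmb, Cd68 and Itgax) and in 5.20% of all 32851 windows. GGAAGT was in 4 of the 9 and 23.8% of all windows, CATGTG in 1 (Cd9) and 14.2%, and CACGTG in 0 and 7.15%. For the 3 windows with TGACTCA, chosen since this motif had the largest gap between both shares, 250 of the 300 bases are given from 5′ to 3′ on the gene's strand, with matches to any of the motifs on either strand in capitals (TGAGTCA and ACTTCC are TGACTCA and GGAAGT read on the other strand). The stretches of Cd68 and Itgax end at the start, so the GGAAGT match of Cd68, which begins 11 bases past its start, lies outside the letters given. These are matches of letters and not measured sites.
Cd68, chr11:69666171-69666420, minus strand: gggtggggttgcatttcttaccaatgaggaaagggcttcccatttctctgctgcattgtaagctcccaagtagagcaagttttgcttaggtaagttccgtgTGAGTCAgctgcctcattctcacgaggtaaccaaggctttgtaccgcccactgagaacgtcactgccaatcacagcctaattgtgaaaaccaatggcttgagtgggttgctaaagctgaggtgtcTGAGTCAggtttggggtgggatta
Itgax, chr7:128129300-128129549, plus strand: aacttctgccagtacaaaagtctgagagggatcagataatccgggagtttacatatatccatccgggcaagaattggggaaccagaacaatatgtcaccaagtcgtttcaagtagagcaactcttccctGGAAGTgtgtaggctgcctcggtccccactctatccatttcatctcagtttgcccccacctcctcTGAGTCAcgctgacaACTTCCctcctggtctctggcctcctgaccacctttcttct
Gpnmb, chr6:49036284-49036533, plus strand, ending 16 bases after the RefSeq start: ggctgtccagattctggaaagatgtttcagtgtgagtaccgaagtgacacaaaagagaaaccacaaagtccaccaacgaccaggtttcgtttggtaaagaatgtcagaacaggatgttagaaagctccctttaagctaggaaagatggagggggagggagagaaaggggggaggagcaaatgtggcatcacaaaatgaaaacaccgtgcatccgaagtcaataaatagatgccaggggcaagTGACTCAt

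Return to LFD for 3 weeks left the 9 genes above LFD. SW against LFD passed the test for all 9 genes, with log2 fold changes from 1.24 ± 0.16 (Cd9, SE, adjusted p = 0.000524) to 4.71 ± 0.29 (Spp1, SE, adjusted p = 2.98e-05, edgeR), where 17.1% of all genes passed and 10.9% were higher. All SW libraries lay above all LFD libraries for the 9 genes, as they did for 19.1% of all genes. The mean of HFD and SW against LFD also called all 9 higher, against 40.1% of all genes called and 20.7% higher. The study's methods give contrast weights without the order of the diets, and their formula, as written, sets HFD against the mean of LFD and SW. That contrast, added after the data were seen, called 8 of the 9 higher, where 50.5% of all genes were called and 26.4% were higher, and Cd63 did not pass (log2 value 0.42, adjusted p = 0.0864, edgeR). These comparisons share libraries with HFD against LFD.

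Against HFD, 0 of the 9 genes passed in SW adipocytes under edgeR, where 31.4% of all genes did. At an unadjusted p under 0.05 (edgeR) there were 6477 of all 14461 genes tested and 3 of the 9. These 3 had lower values in SW, Cd9 (log2 fold change -0.41, adjusted p = 0.0688), Spp1 (-0.55, adjusted p = 0.0860) and Gpnmb (-0.998, adjusted p = 0.0922, edgeR). DESeq2 called 2 of them, Gpnmb and Cd9, and limma-voom called 0. Gpnmb was the only one of the 9 whose SW libraries all lay below the HFD libraries, where 25.2% of all genes did so. The other 6 genes had adjusted p-values of at least 0.203 (edgeR), with values from -0.48 (Itgax) to 0.28 (Cd63) on the log2 scale. A value that missed the threshold does not show that the SW and HFD levels were alike.

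**Figure D2:**
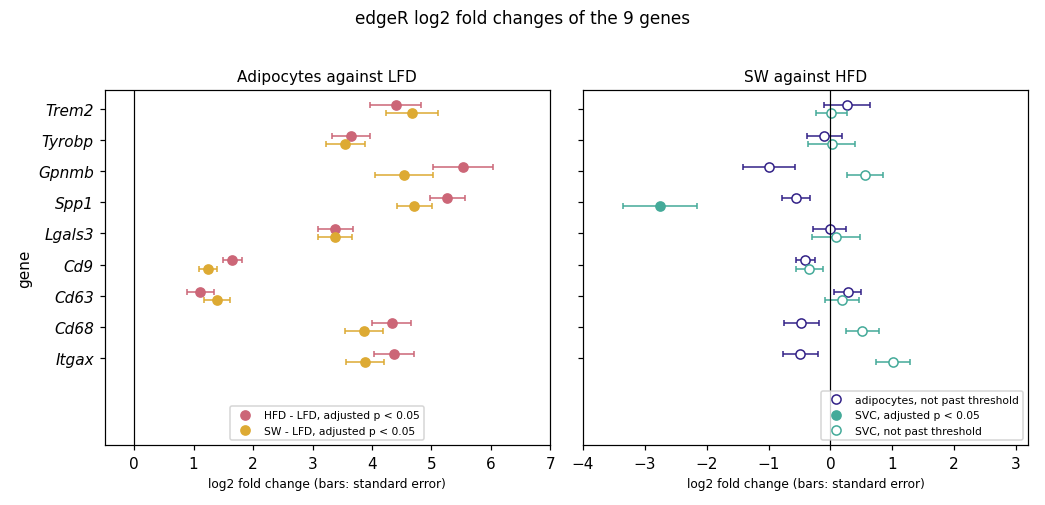
Log2 fold changes from edgeR (x axes, bars are standard errors) of the 9 genes, against LFD in adipocytes (left) and SW against HFD in both fractions (right). Filled points have an adjusted p under 0.05. All points on the left are filled and above 0, and on the right only Spp1 in SVC, at -2.75, is filled.

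The retained share, the log2 rise of SW over LFD as a percent of the log2 rise of HFD over LFD, was 106% for Trem2, 97.3% for Tyrobp, 99.7% for Lgals3 and 125% for Cd63. It was 89.5% for Spp1, 89.2% for Cd68, 88.9% for Itgax, 82.0% for Gpnmb and 75.4% for Cd9. The median over the 9 genes was 89.5%, beside a median of 46.2% and quartiles of 21.1% and 74.6% over the 3836 genes called higher in HFD. Median log2 fold changes of HFD and of SW against LFD were 2.81 and 2.54 over the 11 macrophage markers. They were 1.498 and 1.36 over 22 other genes of the same macrophage program, and 1.74 and 1.05 over 16 genes of TREM2 signalling. The SW median was thus also near the HFD median over the macrophage markers and the 22 other genes, but further below it over TREM2 signalling. Single genes of these lists were lower in SW than in HFD adipocytes, as given below. On the scale of mean CPM the medians were 70.8% for the 9 genes and 35.2% for the 3836 genes, and Gpnmb kept 49.0% of its rise while Cd63 was at 139%. SW library 407 had the highest share in 8 of the 9 genes, Gpnmb being the exception, and without it the median over the 9 genes was 86.2%. Without it the shares ran from 65.5% to 99.4%, so that none was over 100%, and 8 of the 9 lay above the upper quartile of that fit, 70.3%. Without HFD library 402 the lowest share was 70.4%. The upper quartile was passed by 8 or 9 of the 9 genes in every alternative edgeR fit. The genes behind that quartile were picked by their HFD call and were not matched to the 9 genes in size of rise. These fits also share libraries, so the comparison is a description and not a test of retention.

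**Figure D3:**
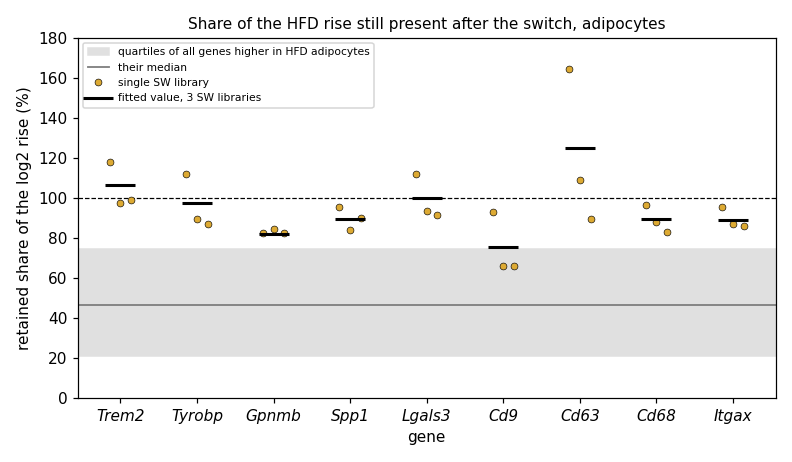
Retained share of the log2 rise in adipocytes (y axis, percent) for each of the 9 genes. Thick bars are the values fitted from 3 SW libraries, points are single SW libraries, the dashed line is 100%, and the grey band and line are the quartiles and median of the 3836 genes called higher in HFD. All 9 bars lie above the upper quartile of 74.6%, Cd9 by the least.

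Counts of the 9 genes were next set against the 11 macrophage markers in the same library. Summed over the 9 genes there were 69.7 to 97.9 counts per 100 macrophage marker counts in LFD adipocytes, 89.4 to 97.1 in HFD and 94.1 to 96.1 in SW adipocytes. These ranges overlapped (HFD against LFD, exact permutation test, two-sided, p = 0.4, where 3 libraries against 3 cannot go below 0.1). With other denominators or sums the p-value of this comparison was 0.1 or 0.2 (same test), so the overlap holds for this sum only. The single genes went in different directions per 100 counts of the 11 markers. Gpnmb went from 3.11 to 8.47 per 100 marker counts in LFD to 24.9 to 30.7 in HFD, a geometric mean 6.48-fold higher. Spp1 was 4.97-fold, Trem2 2.79-fold, Itgax 2.55-fold, Cd68 2.52-fold and Tyrobp 1.53-fold higher in HFD, each without overlap. Lgals3 overlapped between the diets. Cd9 and Cd63 were lower per marker count in HFD without overlap, 2.71-fold and 3.89-fold. On this scale 1.11% of all 14461 genes were higher and 94.8% lower in HFD adipocytes without overlap. In SVC the sum of the 9 genes was 24.8 per 100 marker counts in the single LFD library. It was 61.0 to 92.3 in HFD and 64.8 to 89.9 in SW, geometric means 3.03-fold and 3.04-fold higher. Cd9 and Cd63 lay on both sides of the LFD value in HFD and in SW, while the other genes were higher in every HFD and SW library. With a single LFD library this difference in SVC was not tested.

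In SW against HFD adipocytes, 3 genes were higher per 100 marker counts without overlap, Trem2 (1.48-fold), Cd63 (1.501-fold) and Lgals3 (1.24-fold), and Gpnmb was lower (1.55-fold), where 32.9% of all genes were higher and 7.16% lower without overlap. For Trem2 the values were 4.48 to 5.41 per 100 marker counts in HFD and 6.58 to 8.85 in SW. The exact permutation p-value of each non-overlapping gene was 0.1, the smallest that 3 against 3 libraries allow. The ratio depends on the marker. Adgre1, the gene of the macrophage surface protein F4/80, rose by 4.49 ± 0.20 in HFD adipocytes (log2, SE, adjusted p = 6.04e-06, edgeR), more than 7 of the 9 genes, and Csf1r, the receptor for the growth factor CSF1, rose by 2.81 (adjusted p = 1.36e-05). Per Adgre1 count the sum of the 9 genes differed by -1.23 on the log2 scale in HFD against LFD, and per Csf1r count by 0.40. Between SW and HFD it differed by 0.90 per Adgre1 count and 0.59 per Csf1r count.

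**Figure D4:**
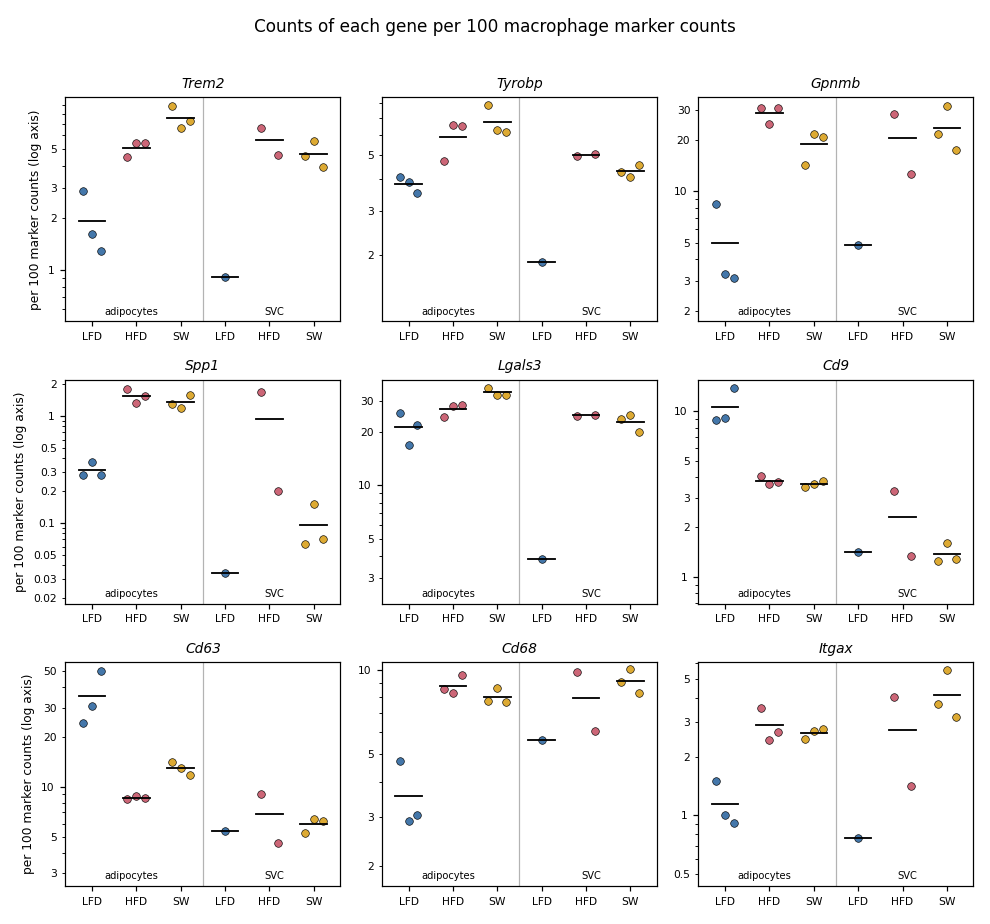
Counts of each of the 9 genes per 100 counts of the 11 macrophage markers in the same library (log axes that differ between panels), by diet in adipocytes (left of the grey line) and SVC (right). Points are libraries and bars are arithmetic means. In adipocytes Gpnmb, Spp1, Trem2, Itgax, Cd68 and Tyrobp are higher in HFD than in LFD, while Cd9 and Cd63 are lower.

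In SVC the single LFD library allowed no test against LFD. All 9 genes had higher levels in both HFD and all 3 SW libraries than in that library, as did 25.5% of all genes. The HFD mean was over 2-fold higher for 8 of the 9 genes, where 29.1% of all 16319 genes were, and the SW mean for 8 of the 9, where 15.0% were. Trem2 was at 74.4 CPM in LFD, 638 and 861 CPM in HFD, and 821, 709 and 742 CPM in SW. Tyrobp was at 153 CPM in LFD, 479 and 935 CPM in HFD, and 770, 522 and 863 CPM in SW. Both genes of the receptor complex overlapped between HFD and SW.

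Spp1 was at 2.79 CPM in the LFD SVC library, 161 and 36.8 CPM in HFD libraries 212 and 411, and 11.5, 19.1 and 13.4 CPM in SW. The SW libraries lay below both HFD libraries and above the LFD library. SW was lower than HFD by a log2 fold change of -2.75 ± 0.60 (SE, adjusted p = 0.0396, edgeR), the 1 gene of the 9 that passed, where 17.5% of all genes did and 11.7% were lower. The call was lost with limma-voom (adjusted p = 0.0642) and without HFD library 212 (log2 fold change -1.25, adjusted p = 0.0899). It was also lost without SW library 412, 413 or 414 (adjusted p = 0.155, 0.0623 and 0.0733), and it was made in 10 of 15 alternatives.

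Itgax was at 62.7 CPM in LFD, 392 and 263 CPM in HFD, and 667, 707 and 600 CPM in SW SVC. All SW libraries lay above all HFD libraries, and the log2 fold change was 1.01 ± 0.27 (SE, adjusted p = 0.0514, edgeR). Although it did not pass here, Itgax passed in 8 of 15 alternatives, among them DESeq2 (adjusted p = 0.00203). Gpnmb was at 396 CPM in LFD, 2741 and 2355 CPM in HFD, and 3896, 4045 and 3319 CPM in SW, and Cd68 was at 459 CPM in LFD, 953 and 1127 CPM in HFD, and 1628, 1283 and 1557 CPM in SW. These 2 genes also did not overlap between SW and HFD, with adjusted p-values of 0.194 and 0.189 (edgeR). Such higher values without overlap were found for 28.5% of all genes, and lower ones, as in Spp1 and Cd9, for 30.0%.

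Lgals3 was at 314 CPM in LFD, 2372 and 4643 CPM in HFD, and 4273, 3204 and 3753 CPM in SW SVC. Cd63 was at 440 CPM in LFD, 874 and 847 CPM in HFD, and 952, 820 and 1169 CPM in SW. Cd9 was at 116 CPM in LFD, 319 and 251 CPM in HFD, and 226, 208 and 242 CPM in SW, so that its SW mean was 1.95-fold the LFD value. Lgals3 and Cd63 overlapped between HFD and SW.

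The change from HFD to SW was then compared between the fractions by an interaction term in 1 fit of all 15 libraries, which 27.1% of 17441 genes passed, 11.4% with a higher and 15.7% with a lower difference in SVC. Gpnmb, at -0.998 in adipocytes and 0.56 in SVC in the separate fits, differed by 1.67 ± 0.58 (log2, SE, adjusted p = 0.0470, edgeR), and Itgax, at -0.48 and 1.01, differed by 1.61 ± 0.42 (adjusted p = 0.0133). Spp1, at -0.55 and -2.75, differed by -2.03 ± 0.59 (adjusted p = 0.0223). The Itgax call was made in all 23 alternatives, the Spp1 call in 19 and the Gpnmb call in 7. Without SVC library 212 the Spp1 difference was -0.72 (adjusted p = 0.265, edgeR), its smallest size among the alternatives, and the call was lost. The other 6 genes did not pass, the lowest adjusted p among them being 0.0703 for Cd68 (edgeR).

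Between the fractions of SW mice, 7 of the 9 genes were higher in SVC than in adipocytes, where 68.4% of all genes passed, 35.6% being higher and 32.8% lower in SVC. The values ran from 0.54 (Cd63, adjusted p = 0.0465) to 2.28 (Itgax, adjusted p = 1.30e-05, edgeR) on the log2 scale. Spp1 was lower in SVC, by a log2 fold change of -2.21 ± 0.42 (SE, adjusted p = 0.000377), and Cd9 did not pass (0.26, adjusted p = 0.161). The Cd63 call was made in 9 of 23 alternatives and, with single libraries left out, was kept only without LFD adipocyte library 404, SW adipocyte library 407 or HFD SVC library 212, the lowest value being 0.29 (adjusted p = 0.307, edgeR) without 414. Trem2 passed in 18 and Tyrobp in 19 of the 23. In HFD mice only Trem2 passed, 1.09 ± 0.39 higher in SVC (log2, SE, adjusted p = 0.0495, edgeR), where 29.1% of all genes passed and 16.2% were higher. This Trem2 call was made in 10 of 23 alternatives.

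Other genes of the lipid-associated macrophage program, the cathepsins, lipid-handling genes and lysosomal genes of a list of 22, were mostly higher in HFD adipocytes as well. Of the 22, 16 rose, 2 fell and 4 did not pass, with a median log2 fold change of 1.498. In this comparison 51.5% of all genes passed and 26.5% were higher. Atp6v0d2, a subunit of the vacuolar proton pump, rose by 5.47 and Mmp12, the macrophage elastase, by 4.70 (adjusted p = 9.40e-06 and 1.80e-05, edgeR). Acp5, tartrate-resistant acid phosphatase, had a log2 fold change of -0.90 and Fabp4, the fatty acid binding protein abundant in adipocytes, of -1.36 (adjusted p = 0.00595 and 0.00124). After the switch 1 of the 22 was higher and 3 were lower than in HFD adipocytes, where 31.4% of all genes passed in either direction.

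Of 16 genes of TREM2 signalling, 14 rose in HFD adipocytes, where 26.5% of all genes did, with a median of 1.74 over the list. Clec7a, the beta-glucan receptor dectin-1, rose by 3.84 and Lat2, an adaptor of immune receptors, by 3.57 (adjusted p = 7.04e-06 and 1.43e-05, edgeR). Clu, the secreted chaperone clusterin that TREM2 can bind, fell by 1.62 on the log2 scale (adjusted p = 2.81e-05). Fyn, a kinase of the SRC family, rose by 0.47 (adjusted p = 0.0248) and kept its call in 13 of 18 alternatives. After the switch 11 of the 16 were lower than in HFD and 1 was higher, where 31.4% of all genes passed in either direction. Thus the receptor and adaptor did not pass in SW against HFD while 11 genes of the signalling list did, and the difference between them was not tested.

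The osteopontin receptors and the CD11c partner were a list of 7, of which 5 rose in HFD adipocytes, as did 26.5% of all genes. Itgb2, the beta chain that pairs with CD11c, rose by 4.35 beside the 4.37 of Itgax, and Itga4, an integrin alpha chain, rose by 2.65 (adjusted p = 9.16e-06 and 3.59e-05, edgeR). Itgav and Itga9, integrin alpha chains that bind osteopontin, rose by 1.48 and 1.01 (adjusted p = 6.15e-05 and 0.00727). Compared with HFD, 4 of the 7 were lower in SW adipocytes, among them Itgb2, with a log2 fold change of -0.94 (adjusted p = 0.0266, edgeR). Of all genes, 31.4% passed there in either direction. In SVC 3 of the 7 were lower in SW than in HFD, as were 11.7% of all genes.

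Among 12 related tetraspanins and galectins, 5 rose and 3 fell in HFD adipocytes and the median was 0.14. Of all genes, 51.5% passed this comparison and 26.5% rose. Cd53 and Cd37, tetraspanins of leukocytes, rose by 3.42 and 2.74 (adjusted p = 6.26e-06 and 9.33e-06, edgeR). Tspan8 and Lgals4, which are known from epithelia, had log2 fold changes of -2.94 and -1.65 (adjusted p = 0.00426 and 0.000600). All 11 macrophage markers rose, with a median of 2.81, the largest being Adgre1 at 4.49 and Itgam, the integrin alpha chain CD11b, at 4.10. Their smallest rises were in the complement gene C1qa (1.85) and the receptor kinase gene Mertk (0.97). After the switch 5 of the 11 were lower and 0 higher under edgeR, among them Adgre1 (-1.22, adjusted p = 0.00380) and Itgam (-1.59, adjusted p = 0.00946). In that comparison 31.4% of all genes passed in either direction.

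In SVC, SW against HFD, the same lists held lower calls and no higher ones under edgeR, where 11.7% of all genes were lower. There were 6 of 22 in the lipid-associated macrophage list, the lowest being Cd36, a fatty acid transporter (-2.54, adjusted p = 0.0362), and Fabp4 (-2.08, adjusted p = 0.0373). The smallest changes among them were those of the scavenger receptor gene Msr1 (-1.66) and of Nceh1, a cholesterol ester hydrolase (-1.58, both with adjusted p = 0.0362). The TREM2 signalling list held 4 of 16, Adam10 and Adam17, proteases that shed TREM2, at -2.46 and -2.29, Vav3, a signalling protein of immune cells, at -2.35 and Clec7a at -1.79 (adjusted p from 0.0362 to 0.0379). The 3 integrin genes were Itgb1 (-2.21), Itga4 (-2.15) and Itgav (-1.63, adjusted p from 0.0367 to 0.0381). The related tetraspanins and galectins held 1 of 12, Lgals8, which encodes galectin-8 (-1.57, adjusted p = 0.0466, passing in 7 of 15 alternatives), and the macrophage markers 1 of 11, the mannose receptor gene Mrc1 (-1.55, adjusted p = 0.0362). No gene of the whole table passed without SW library 412 or 413, so all these SVC calls were lost there.

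Among the 5 genes whose pattern was most like the mean of the 9 over the 9 adipocyte libraries, by Pearson r of log2 CPM among 12606 genes, were Clec12a (r = 0.999), an inhibitory C-type lectin receptor of myeloid cells, and Pianp, Pld3 and Glipr1. Clec12a averaged 15.3 CPM in LFD, 247 CPM in HFD and 227 CPM in SW adipocytes. Over the 6 SVC libraries the 5 most alike were Zfyve28, Tpcn2, Tcirg1, Cdkn2c and F7, with r from 0.996 to 0.998. All these points share the diet groups and the scaling, and r is given as a description only. Within SVC, r to that mean, of which each gene is itself a part, was 0.64 for Spp1 and at least 0.90 for the other 8 genes.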

How the data were processed

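RNA from adipocyte and SVC fractions was sequenced by the authors on Illumina TruSeq libraries. The deposited values are expected counts per gene, which the authors estimated with RSEM after Bowtie2 alignment, and the genome build is mm9 per the submitters' processing notes. They were rounded to whole numbers and no other step was applied before testing. Of 18 labelled libraries, 15 were used, and 3 columns whose names matched no group were not used. The labels list 26 sequencing records for these 18 libraries, some paired-end and some single-end and only paired-end ones for SW adipocytes. Whether a column sums both kinds is not given in the sources used here, and the part of this in the results was not tested. Groups came from the labels and column headers.

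Counts were tested with edgeR 4.0.16 (R 4.3.3, TMM, quasi-likelihood F-test, filterByExpr with a minimum count of 10, Benjamini-Hochberg over all genes, threshold 0.05), in 1 fit for adipocytes, 1 for SVC and 1 for both. Alternatives used DESeq2 1.42.0, limma 3.58.1, other scalings and filters, thinned counts and each library left out. The tests were tested on simulated data. Counting precision follows the totals. A count of 3 was noted as a floor but entered no value, filter or test, and all 9 genes lay above it in every library. The 9 genes and all lists were chosen with earlier results of these data known. The text names all 9 genes and, of the 5 related lists, the 2 largest and 2 smallest log2 fold changes among genes past the threshold (HFD against LFD in adipocytes, SW against HFD in SVC), plus the 5 genes most alike in each fraction, of which 1 in adipocytes is not reported here. SW against HFD values of Itgb2, Adgre1, Itgam and the Csf1r values were added after they were seen. Of 39017 gene IDs, 37693 were found in GENCODE M21.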

Additional observations from a re-analysis of the deposited data

Results flagged for a closer look

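For 3 of the 9 genes the interaction term in edgeR called a different change after the diet switch in adipocytes and SVC. Adjusted p-values are over all 17441 tested genes, of which 27.1% passed. A higher difference in SVC was called for 11.4% and a lower one for 15.7%. For Gpnmb the change in SVC minus that in adipocytes was 1.67 on the log2 scale (adjusted p = 0.0470), with all 3 SW libraries below HFD in adipocytes and all 3 above HFD in SVC. This call was made in 7 of 23 alternatives, with adjusted p-values up to 0.108. For Itgax it was 1.61 (adjusted p = 0.0133), with the call made in all 23. For Spp1 it was -2.03 (adjusted p = 0.0223) and -0.72 without SVC library 212 (adjusted p = 0.265), with the HFD SVC libraries at 161 and 36.8 CPM and 6.34% and 33.5% of their counts on the mitochondrial genome. The part of the mitochondrial share in these differences was not tested. An alternative without mitochondrial genome and hemoglobin genes, chosen after seeing the data, also called 3 of the 9 genes. It kept both HFD SVC libraries in the fit, so it does not test that part.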

How the results depend on the processing

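No paired analysis was possible because the column numbers are given in no label and the fractions share none. The 9 calls of HFD against LFD, of SW against LFD and of both diets against LFD were made in every alternative, except that Cd63 did not pass (0.42) with HFD set against the mean of LFD and SW, an alternative chosen after seeing the data. Between SW and HFD adipocytes 2 of the 9 genes passed with DESeq2, 1 when only the 2 groups compared were fitted, and 0 to 2 with single libraries left out (1 without LFD 404 or 406, 2 without HFD 402 or SW 407). In SVC, SW against HFD, 3 passed with DESeq2, 0 with limma-voom, 2 with upper-quartile factors, with no filter, with thinned counts or with only the groups compared, and 0 to 2 with single libraries left out (2 without LFD 236 or HFD 411, 0 without SW 412, 413 or 414). In HFD mice, SVC against adipocytes, 3 passed with DESeq2 or upper-quartile factors, 2 with at least 10 counts in every library, 0 with limma-voom or no filter, and 0 to 5 with single libraries left out (5 without SVC 212, 2 without LFD 404 or 406, 1 without adipocyte SW 407, 0 otherwise). In SW mice 5 to 8 passed with single libraries left out (5 without adipocyte SW 408 or 409 or SVC SW 412 or 414). For the difference between fractions 1 passed with limma-voom and 1 to 4 with single libraries left out (1 without adipocyte HFD 402, SVC HFD 212 or SVC SW 412). The number of all genes called also changed between fits, and the next paragraph gives it for some of them only. These counts therefore do not show whether the 9 genes passed more or less often than other genes in the same fit.

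Among all genes, SW against HFD in adipocytes called 4546, but 2875 with thinned counts, 2299 without HFD 401, 1522 without HFD 403 and 1644 with the SVC libraries in the same fit, an alternative chosen after seeing the data. SW against LFD called 2468, or 1459 in that fit. SVC, SW against HFD, called 2849, but 5222 with DESeq2, 1719 with limma-voom, 503 without HFD 212, 6213 without HFD 411, 593 without SW 414 and 0 without SW 412 or 413. HFD SVC against adipocytes called 5078, but 3332 with thinned counts, 3255 without adipocyte HFD 402 and 2528 without SVC HFD 411, and the difference between fractions called 4727, or 2936 without SVC HFD 212. The upper-quartile factors put the median of all genes at -0.12 in HFD against LFD, beside -0.03 with TMM.

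The median retained share was 70.8% from linear mean CPM, and 86.2% to 93.2% with single libraries left out. The summed ratio to macrophage markers in adipocytes, as a log2 difference, was 0.17 for HFD against LFD, 0.04 for SW against HFD and 0.22 for SW against LFD. With Adgre1 alone as denominator it was -1.23, 0.90 and -0.34, with Csf1r alone 0.40, 0.59 and 0.99, with mean log2 counts of markers 0.40, 0.25 and 0.65, and with mean log2 counts of the 9 genes 0.75, 0.06 and 0.81. Leaving out single libraries gave 0.05 to 0.30, 0.02 to 0.08 and 0.10 to 0.34.

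Signs changed only for values that did not pass. Between SW and HFD adipocytes Lgals3 was 0.025 with upper-quartile factors and 0.013 with thinned counts, and leaving out libraries gave -0.094 to 0.43 for Trem2, -0.45 to 0.066 for Tyrobp, -0.27 to 0.11 for Lgals3 and -0.0069 to 0.44 for Cd63. In SVC, with at least 10 counts in every library, Trem2 was -0.091, Tyrobp -0.087 and Lgals3 -0.012, and leaving out libraries gave -0.11 to 0.25, -0.30 to 0.59 and -0.24 to 0.66. In HFD mice leaving out libraries gave -1.48 to 0.49 for Spp1, which passed there without SVC 212, and -0.017 to 0.17 for Cd9. For the difference between fractions Cd63 was -0.040 with upper-quartile factors and -0.069 with at least 10 counts, and leaving out libraries gave -0.43 to 0.14 for Trem2, -0.26 to 0.76 for Tyrobp, -0.27 to 0.75 for Lgals3, -0.0067 to 0.28 for Cd9 and -0.19 to 0.23 for Cd63. The cause of these changes was not tested. SVC, SW against HFD, rests on 3 SW and 2 HFD libraries, and each of the 9 genes had at least 16 counts in every library.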
